A study of Homo sapiens with 14 samples.

Results

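ATR inhibition at 19 h was read with 2 antibodies in BJ hTERT cells, which are human foreskin fibroblasts made immortal by telomerase. The comparison set total RNA polymerase II (RNAPII) in ATRi-treated cells against total RNAPII in cells given DMSO, the vehicle, and did the same for RNAPII phosphorylated at serine 2 (Ser2). All 4 libraries came from that line at the same hour, and their labels differ only in antibody and agent. They are 4 of the 14 chromatin immunoprecipitation (ChIP-seq) libraries of the study, which also covered 14, 16 and 22 h. Each group was 1 library, so no value carries a replicate error and no difference was tested. The antibodies recognise different forms of the same enzyme and are not replicates of each other. The labels give neither the name and dose of the inhibitor nor what the hours count from. The title of the series places the study in S-phase, but the labels do not state whether or how the cells were synchronised. The protocol text names antibodies against histones only, so the identity of the antibodies rests on the sample descriptions. Of 12411 nuclear genes, 12066 had a mean of at least 1 read per 1000000 library reads (RPM) over the 4 libraries and were kept. The gene just inside this limit had a mean of 1.00 RPM and the one just outside it 0.991 RPM.

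ATR is a kinase recruited to single-stranded DNA at stalled replication forks. It signals through CHEK1 to hold back late replication origins and entry into mitosis, and it limits collisions between forks and transcribing polymerases. RNAPII pauses soon after initiation, and the phosphorylation of serine 2 in the repeats of its largest subunit, POLR2A, marks the form that elongates through the gene body. Total RNAPII therefore includes paused, elongating and terminating polymerase, while Ser2 signal is weighted towards the later parts of genes. The table gives 1 value per gene over its whole span, so paused and elongating polymerase within a gene were not separated here.

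Few genes differed between ATRi and DMSO at 19 h by as much as 1.2-fold, and fewer still did so with both antibodies. EGR1, an immediate early transcription factor, lay farthest below the median gene by the weaker of its ratios, with log2 ratios of -0.78 in total RNAPII and -0.58 in Ser2. The protease inhibitor SERPINE2 and the collagens COL6A3 and COL4A1 were also lower with both antibodies, and PLPP3, a lipid phosphatase, was higher with both. Genes of the ATR pathway, of DNA repair and of the cell cycle lists did not pass 1.2-fold with either antibody. Over all genes 1.19% to 1.76% passed it in each direction with each antibody, so lists of this size would hold few or no such genes at those shares. In a population of cells, fewer cells that transcribe a gene and less polymerase per cell cannot be told apart.

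The promoters of the leading genes of each direction are shown first, because EGR1 is known to be driven through serum response elements, whose core can be read in its sequence. Each is the RefSeq window (GRCh38.p14) from 250 bases before to 50 bases after the annotated start, 5′ to 3′ on the gene's strand. EGR1 is chr5:138465229-138465528 on the + strand, SERPINE2 is chr2:224031429-224031728 on the - strand, PLPP3 is chr1:56579514-56579813 on the - strand and GPD1L is chr3:32106370-32106669 on the + strand. Only the EGR1 window covers the start of the span in which reads were counted. Those of SERPINE2, PLPP3 and GPD1L lie inside their counted spans (chr2:223975112-224039319, chr1:56494747-56645301 and chr3:32105689-32168713). A start at the outer end of these spans is not covered by the window. The capitals mark every match, on either strand, to the TATA box (TATAAA), the CCAAT box, the GC box that Sp1 binds (GGGCGG), the AP-1 motif (TGACTCA), the CRE motif (TGACGTCA), the CHR motif (TTTGAA) and the CArG box, the core of the serum response element (CC, then A or T at each of 6 places, then GG). In GPD1L 2 of the matches overlap by 1 base.
EGR1: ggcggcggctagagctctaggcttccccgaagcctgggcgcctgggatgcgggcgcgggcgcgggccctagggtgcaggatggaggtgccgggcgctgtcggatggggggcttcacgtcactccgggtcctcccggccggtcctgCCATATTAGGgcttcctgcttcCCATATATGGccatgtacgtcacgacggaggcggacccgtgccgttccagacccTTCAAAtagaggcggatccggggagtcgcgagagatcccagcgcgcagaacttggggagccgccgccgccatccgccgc
SERPINE2: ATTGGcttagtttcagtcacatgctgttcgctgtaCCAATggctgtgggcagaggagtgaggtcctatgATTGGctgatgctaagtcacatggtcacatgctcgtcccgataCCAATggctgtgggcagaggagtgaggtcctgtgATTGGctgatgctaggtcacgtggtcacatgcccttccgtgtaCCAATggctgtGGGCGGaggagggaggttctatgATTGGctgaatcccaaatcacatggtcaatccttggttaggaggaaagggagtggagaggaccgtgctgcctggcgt
PLPP3: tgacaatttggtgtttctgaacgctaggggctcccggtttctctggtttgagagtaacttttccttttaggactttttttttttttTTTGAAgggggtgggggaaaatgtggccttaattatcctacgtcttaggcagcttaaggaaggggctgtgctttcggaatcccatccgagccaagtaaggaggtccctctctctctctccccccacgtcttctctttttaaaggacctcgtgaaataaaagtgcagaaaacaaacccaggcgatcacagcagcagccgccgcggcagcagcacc
GPD1L: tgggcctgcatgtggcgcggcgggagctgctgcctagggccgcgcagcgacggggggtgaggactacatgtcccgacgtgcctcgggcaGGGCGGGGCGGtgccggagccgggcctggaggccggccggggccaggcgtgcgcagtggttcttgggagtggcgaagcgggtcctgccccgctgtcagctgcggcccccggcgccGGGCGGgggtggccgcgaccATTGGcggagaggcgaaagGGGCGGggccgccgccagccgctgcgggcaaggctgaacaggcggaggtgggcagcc

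EGR1 and SERPINE2, lower with both antibodies, had unlike promoters. The EGR1 window held 2 CArG boxes and 1 TTTGAA, and the SERPINE2 window held 7 CCAAT boxes and 1 GGGCGG. PLPP3 held a single TTTGAA, and GPD1L held 4 GGGCGG and 1 CCAAT. Among the 8583 kept genes with a promoter entry, the CArG box was present in 1.08%, CCAAT in 36.6%, GGGCGG in 71.5% and TTTGAA in 9.57%. TATAAA was present in 4.81%, TGACTCA in 2.94% and TGACGTCA in 3.44%. Of the 28 genes lower with both antibodies at a fold of 1.2, 12 had a promoter entry. Of these 12, 0 held TATAAA, 1 (EGR1) a CArG box, 5 CCAAT, 9 GGGCGG, 1 TTTGAA, 1 TGACTCA and 0 TGACGTCA. Of the 13 higher genes 7 had an entry, and 0 of them held TATAAA or a CArG box. At a fold of 1.1, 156 of the 264 lower genes had an entry, and 11.5% held TATAAA, 2.56% a CArG box, 42.9% CCAAT, 75.6% GGGCGG, 12.8% TTTGAA, 5.77% TGACTCA and 3.21% TGACGTCA. For the 75 of 124 higher genes with an entry at that fold these shares were 5.33%, 0%, 44%, 65.3%, 8%, 5.33% and 1.33%. The share with TATAAA among the lower genes was thus above that of all genes at 1.1-fold, while the 12 promoters at 1.2-fold are too few to compare. No share among genes of like length or density was computed. A match of letters is a description of the sequence and not a binding site.

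Before the gene values, the scale needs to be set. A gene's ratio is log2 of (ATRi RPM + 0.5) over (DMSO RPM + 0.5), given relative to the median gene of the same antibody, which stood at -0.03 in total RNAPII and 0.06 in Ser2 on the deposited scale. A gene counts as called past 1.2-fold, a log2 ratio of 0.26 in either direction. The brackets after a ratio are exact 95% Clopper-Pearson intervals on the recovered reads and cover counting error only. The libraries held 35871568 (total, DMSO), 46533646 (total, ATRi), 30193468 (Ser2, DMSO) and 36316086 (Ser2, ATRi) reads, and the median kept gene held 909 to 1679 of them. Between 63.5% and 72.0% of the reads lay in the listed nuclear genes. All 12 fibroblast markers were in the table, with a summed level of 2392 to 2646 RPM in total RNAPII and 2288 to 2320 RPM in Ser2. None of 8 blood markers, 1 of 8 keratinocyte markers (KRT14, 0.236 to 0.496 RPM), 2 of 6 endothelial markers (TEK and VWF, 12.6 to 28.8 RPM) and 1 of 6 melanocyte markers (MITF, 36.5 to 53.1 RPM) were in it. Per length, TEK, VWF and MITF had 0.0867 to 0.232 RPM per kb, against 0.969 to 25.2 RPM per kb for the fibroblast markers.

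In total RNAPII, 212 genes were past 1.2-fold higher (1.76% of 12066) and 143 were past it lower (1.19%). With the Ser2 antibody, 150 were higher (1.24%) and 157 lower (1.3%). On the deposited scale, without setting the median gene to 0, these counts were 145 and 226 in total RNAPII and 371 and 76 in Ser2, so the share of called genes that were higher moved from 59.7% to 39.1% in total RNAPII and from 48.9% to 83.0% in Ser2. Both antibodies placed 13 genes higher (0.108%) and 28 lower (0.232%). Another 9 genes were higher in total RNAPII and lower in Ser2, and 1 was the reverse. At 1.5-fold, 2 genes were higher and 2 lower in total RNAPII, and 6 were higher and 3 lower in Ser2. No gene passed 1.5-fold with both antibodies. EGR1 was one of the 2 lower genes in total RNAPII, with 1066 or more reads in every library, and the other was ENSG00000278716. The 2 higher ones were CASC18 and ENSG00000272630, and the 3 lower in Ser2 were INE1, LOC124900282 and ENSG00000235370. Besides EGR1, the 12 genes past 1.5-fold with either antibody, named here after their values were seen, had 31 to 133 reads in their lowest library, and 6 of them shared their whole span with other listed genes.

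**Figure D1:**
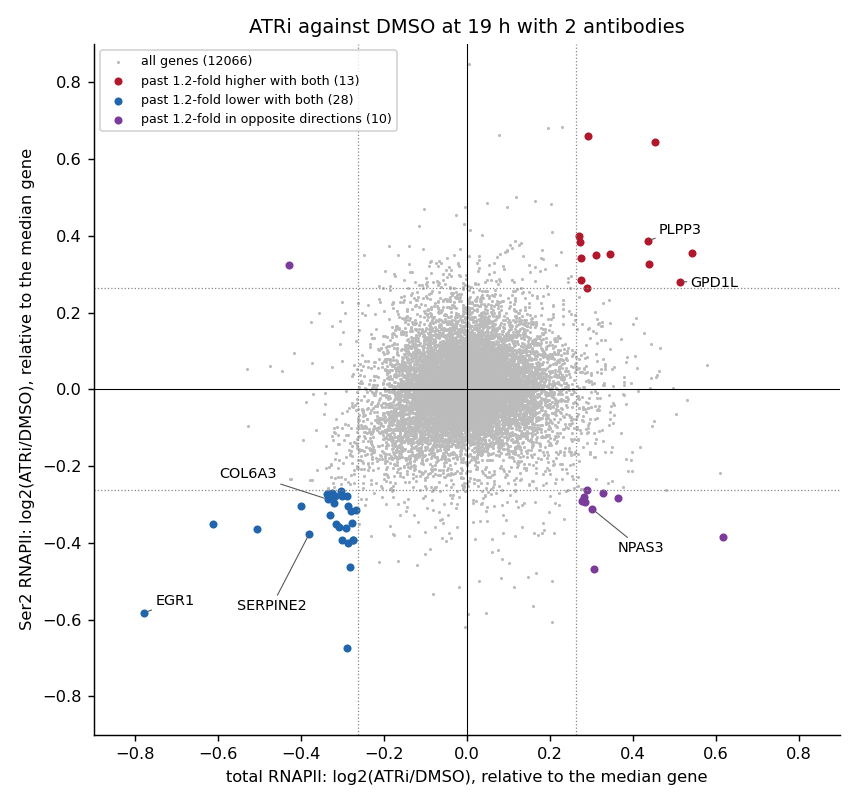
Each point is 1 of 12066 nuclear genes, placed by its log2 ratio of ATRi to DMSO at 19 h in total RNAPII (x axis) and in Ser2 (y axis), each relative to the median gene; dotted lines mark 1.2-fold. The 13 genes higher and 28 lower with both antibodies sit in 2 opposite corners, with EGR1 farthest out at -0.78 and -0.58.

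EGR1 (ENSG00000120738, chr5:138465490-138469315, + strand) encodes a zinc finger transcription factor induced within minutes by growth factors. Its level was 60.0 RPM with DMSO and 34.1 RPM with ATRi in total RNAPII, and 42.3 RPM and 29.4 RPM in Ser2. The ATRi library was thus below its own DMSO library with each antibody. The ratios relative to the median gene were -0.78 [-0.88, -0.69] and -0.58 [-0.71, -0.47]. REEP2, its nearest listed gene at 18520 bases, was at 0.02 and 0.23. At the other hours, each with its own DMSO library, the EGR1 ratios were 0.05 (16 h) and 0.10 (22 h) in total RNAPII and -0.05 and 0.23 in Ser2.

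SERPINE2 (ENSG00000135919, chr2:223975112-224039319, - strand) encodes a secreted inhibitor of thrombin and urokinase. Its RPM went from 166 (DMSO) to 125 (ATRi) in total RNAPII and from 141 to 113 in Ser2, ratios of -0.38 [-0.43, -0.33] and -0.38 [-0.44, -0.32]. Both ratios had the same size, unlike those of EGR1. MRPL44, a mitochondrial ribosomal protein gene 7397 bases away, stood at -0.28 and -0.39. Signal that runs past the end of 1 of these neighbours into the other was not separated, so they may not be separate cases.

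The naming rule kept genes with a symbol, at least 100 reads in each library and under 10% of the span shared with other genes. Of those lower in both antibodies it took the 15 with the largest smaller ratio, so they lie far from 0 by selection. These 15 were past 1.2-fold with both, and they are all of the 28 called lower genes that met those limits. Besides EGR1, SERPINE2 and MRPL44 they were SYNE3, ASS1, ADGRA3, GLI1, FAM43A, COL6A3, TCIM, UBALD1, CDC34, CALCOCO1, RNU5B-1 and COL4A1. SYNE3, a nesprin of the nuclear envelope, had 47.2 RPM (DMSO) and 36.7 RPM (ATRi) in total RNAPII and 45.2 and 37.6 RPM in Ser2, with ratios of -0.33 and -0.33. ADGRA3, an adhesion receptor of 171 kb, had 73.0 and 57.8 RPM, then 79.1 and 64.3 RPM, with ratios of -0.31 and -0.36. GLI1, the transcription factor at the end of Hedgehog signalling, had 21.5 and 17.2 RPM, then 15.4 and 13 RPM, with ratios of -0.29 [-0.44, -0.15] and -0.30 [-0.50, -0.12]. In each of these 3 genes the counting intervals of the antibodies overlapped. The urea cycle enzyme ASS1 (-0.32 and -0.35) and the autophagy receptor CALCOCO1 (-0.27 and -0.39) were at 16.4 to 25.2 RPM. FAM43A had the fewest reads of the group, 118 in its lowest library, and intervals that reached -0.01 in total RNAPII.

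Fewer genes with many reads were higher with both antibodies. Of the 13, 10 had a mean under 5 RPM and 4 shared their whole span with other listed genes, and the counting intervals of both antibodies were clear of 0 in 4. The 28 lower genes held 10 under 5 RPM, 8 with a wholly shared span and 20 with both intervals clear of 0. Only PLPP3 and GPD1L met the naming rule and were past 1.2-fold higher with both. PLPP3 (ENSG00000162407, chr1:56494747-56645301, - strand), which breaks down lysophosphatidic acid and related lipids at the cell surface, had 53.1 RPM (DMSO) and 70.8 RPM (ATRi) in total RNAPII and 50.9 and 69.7 RPM in Ser2. With each antibody the ATRi library exceeded its own DMSO library, with ratios of 0.44 [0.36, 0.52] and 0.39 [0.30, 0.48]. With a background density subtracted (in each library the 5th percentile of RPM per kb over genes of at least 10 kb), these were 0.81 and 1.00. PRKAA2, which starts 20 bases from PLPP3, was at 0.40 in total RNAPII and -0.21 in Ser2. At 16 and 22 h the PLPP3 ratios were -0.31 and -0.38 in total RNAPII and -0.22 and -0.14 in Ser2.

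GPD1L, a glycerol-3-phosphate dehydrogenase relative, had 6.30 RPM (DMSO) and 9.03 RPM (ATRi) in total RNAPII and 8.21 and 10.5 RPM in Ser2, with ratios of 0.51 [0.31, 0.78] and 0.28 [0.07, 0.54]. Its mean density was 0.135 RPM per kb, under the background density of each library (0.205 to 0.233 RPM per kb). After subtraction of that background its values were 0.054 and -0.078, which reflect only the median gene, and the call was lost. TLE4, a Groucho co-repressor, was the most densely covered of these genes over 100 kb, with 370 RPM (DMSO) and 438 RPM (ATRi) in total RNAPII and 339 and 418 RPM in Ser2. Its ratio was past 1.2-fold in total RNAPII at 0.27 [0.24, 0.30] and not in Ser2 at 0.24 [0.20, 0.28]. CCBE1, a secreted factor of lymphatic growth, was at 0.31 and 0.20, and the long noncoding RNA TUG1 at 0.25 and 0.26. Other higher genes of the rule were HES7, ALKBH7, LINC01085, NTPCR, ZNF74, CCDC86, BATF2, PABIR1 and ZNF738, with ratios of 0.19 to 0.33.

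**Figure D2:**
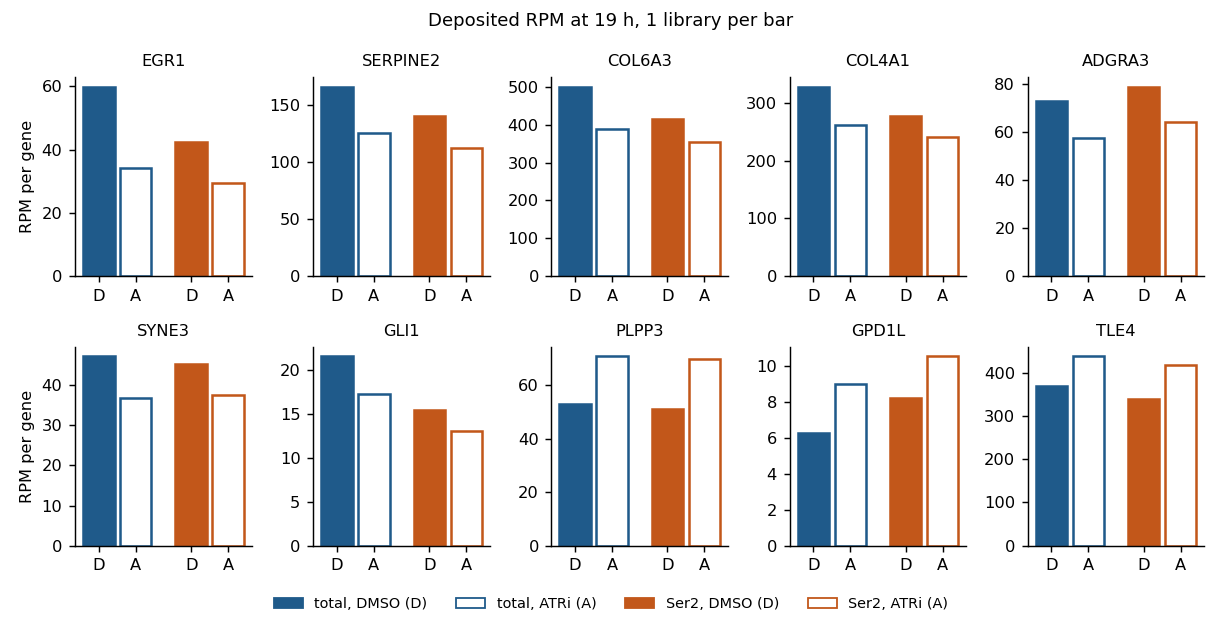
Bars show the deposited RPM of 10 genes in the 4 libraries at 19 h, filled for DMSO and open for ATRi, with total RNAPII left and Ser2 right in each panel and 1 library per bar. In the first 7 genes (EGR1 to GLI1) the ATRi bar is the lower of its pair with both antibodies, and in PLPP3, GPD1L and TLE4 it is the higher.

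Genes of the fibroblast matrix held 2 of the 28 genes lower with both antibodies. Of 34 measured members (38 listed), 3 were called lower in total RNAPII (COL6A3, COL4A1 and COL4A2) and 2 in Ser2 (COL6A3 and COL4A1), and none was called higher. These are 8.82% and 5.88% of the members, beside 1.19% and 1.3% of all genes. The median was -0.10 in total RNAPII and -0.07 in Ser2, against 0 over all genes by construction, and 22 members were below 0 with both. With the trend of the ratios with read density removed the median in total RNAPII was -0.05, and on the deposited scale the Ser2 median was -0.01. COL6A3 (ENSG00000163359, chr2:237324003-237414375, - strand), a chain of the microfibrillar collagen VI, had 501 RPM (DMSO) and 390 RPM (ATRi) in total RNAPII and 415 and 355 RPM in Ser2. Its ratios were -0.34 [-0.37, -0.31] and -0.29 [-0.32, -0.25]. COL4A1, a chain of basement membrane collagen, had 329 and 261 RPM, then 278 and 241 RPM, with ratios of -0.31 and -0.26.

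COL4A2, which is transcribed from the same promoter region in the other direction and overlaps COL4A1, had ratios of -0.28 and -0.22. The other chains of collagen VI were less far from the median gene, COL6A1 at -0.25 and -0.07 and COL6A2 at -0.12 and -0.07. Fibrillar collagen was near it, COL1A1 at -0.14 and -0.01, COL1A2 at -0.08 and -0.10 and COL3A1 at -0.03 and -0.17. THBS1 and TIMP3, secreted matrix regulators, were at -0.24 and -0.23 in total RNAPII and at -0.11 and -0.10 in Ser2. At the other end stood PLOD2, which hydroxylates collagen lysines, at 0.19 and 0.16. The matrix list was thus spread on both sides of the median gene in either antibody.

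Most immediate early genes lay below the median gene in total RNAPII, but few passed 1.2-fold. Of 27 measured (34 listed), 22 were below 0 and 5 above it in total RNAPII. The share above 0 was 18.5%, beside 20.8% of genes in the densest quintile of RPM per kb and 30.1% of genes under 10 kb. The median density of the list was 7.38 RPM per kb, against 1.05 RPM per kb over all genes, and its median length was under 10 kb. The sign count was thus close to that of other dense genes. Past 1.2-fold, 3 were lower in total RNAPII (EGR1, JUNB and IER2), 1 lower in Ser2 (EGR1) and 1 higher in Ser2 (FOSB). The 3 are 11.1% of the members, beside 1.19% of all genes, 3.03% of genes in the densest quintile and 3.97% of genes under 10 kb. In Ser2 1 of 27 in each direction stands beside 1.3% lower and 1.24% higher over all genes. For genes under 10 kb these Ser2 shares were 3.36% and 4.54%. The medians were -0.12 and -0.03. In total RNAPII the median was -0.05 with the density trend removed and -0.07 with the trend in gene length removed, and in Ser2 it was 0.03 on the deposited scale. JUNB, an AP-1 subunit, had ratios of -0.29 and -0.23 and IER2 of -0.29 and -0.12. The AP-1 subunits JUN (-0.17 and -0.13) and FOSL1 (-0.21 and -0.08), the growth regulator MYC (-0.15 and -0.06) and SRF, the factor that binds CArG boxes (-0.11 and 0.01), did not pass 1.2-fold. FOSB went the other way in Ser2, from 18.1 RPM (DMSO) to 24.8 RPM (ATRi), a ratio of 0.38, and had 30.7 and 33 RPM in total RNAPII, a ratio of 0.13. Both FOSB and JUNB share their whole span with other listed genes, whose reads cannot be told apart from theirs. EGR3 stood at -0.05 and -0.06, with 1.79 to 2.04 RPM.

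Actin and contractile genes had medians of -0.11 in total RNAPII and -0.03 in Ser2. The 1 of 27 called (PDLIM7, lower in total RNAPII at -0.26) is 3.7% of the members. That stands beside 1.19% of all genes and 3.03% of genes in the densest quintile of RPM per kb. In total RNAPII 25 of 27 were below 0. The share above 0 was 7.41%, beside 20.8% of genes in the densest quintile of RPM per kb. The list's median in total RNAPII was -0.04 with the density trend removed. These genes were dense in reads, at a median of 6.39 RPM per kb against 1.05 RPM per kb over all genes. On the deposited scale the Ser2 median was above 0, as it was for the p53 targets that follow. ITGA5, the fibronectin receptor subunit, was at -0.26 and -0.20, just short of the threshold. For p53 targets the medians were -0.10 and -0.04, with 1 of 21 called, PHLDA3 at -0.31 in total RNAPII. That is 4.76% of the members, beside 1.19% of all genes called lower in total RNAPII. With the density trend removed the median of these targets in total RNAPII was -0.06. CDKN1A, the p53-induced inhibitor of cyclin-dependent kinases, had 75.9 RPM (DMSO) and 65.7 RPM (ATRi) in total RNAPII and 54.7 and 52.3 RPM in Ser2, with ratios of -0.18 [-0.26, -0.11] and -0.13 [-0.22, -0.03]. MDM2 was at -0.07 and -0.07. No p53 target was called higher with either antibody, beside 1.76% of all genes in total RNAPII and 1.24% in Ser2.

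All 23 measured replication-dependent histone genes (63 listed) were below 0 in total RNAPII, and the median was -0.25. Of these 10 were past 1.2-fold (43.5%), beside 1.19% of all genes and 3.97% of genes under 10 kb. In Ser2 the median was -0.11, with 19 below 0 and none called, and it was -0.05 with the density trend removed or on the deposited scale. H3C2 had 30.0 RPM (DMSO) and 23.3 RPM (ATRi) in total RNAPII and 29.7 and 27.0 RPM in Ser2, ratios of -0.33 and -0.20, and the linker histone H1-4 was at -0.32 and -0.18. At the upper end were H2BC4 (-0.09 and 0.05) and H4C1 (-0.13 and 0.09). These genes are short, with a median length of 0.411 kb, and dense in reads. Removing the trend of the ratios with read density took the median in total RNAPII to -0.03 and removing that with gene length to -0.10, so the value moved with the way short, dense genes are treated. Histone genes are near-identical copies, and how the authors assigned reads among them is not given in the sources used here.

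Spliceosomal snRNA genes, also short, had lower medians still. Of 8 measured members (18 listed, counting the 7SK RNA), 7 were called lower in total RNAPII and 1, RNU5B-1, in Ser2. These are 87.5% and 12.5% of the members, beside 1.19% and 1.3% of all genes and 3.97% and 3.36% of genes under 10 kb. The medians of the 8 members were -0.32 and -0.23. The eighth, RNU6ATAC of the minor spliceosome, was above 0 in total RNAPII at 0.07 and below it in Ser2 at -0.21, with 1.68 to 3.22 RPM. RNU5B-1 had 14.7 RPM (DMSO) and 11.3 RPM (ATRi) in total RNAPII and 16.4 and 14.1 RPM in Ser2, with ratios of -0.34 [-0.53, -0.18] and -0.27 [-0.46, -0.10]. RNU4-2 and RNU5E-1 were at -0.34 in total RNAPII and -0.26 in Ser2, just short of the threshold for Ser2. With the density trend removed the medians were -0.06 and -0.15, and with the length trend removed -0.13 and -0.19. Multiple near-identical copies exist, so values of single snRNA genes are uncertain.

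Ribosomal protein genes stood above the median gene in Ser2. In total RNAPII their median was 0.01, and 40 of 67 were above 0. In Ser2 the median was 0.12, with 63 of 67 above 0 and 3 called higher (4.48%, beside 1.24% of all genes and 4.54% of genes under 10 kb). These were RPLP2 (16.9 RPM with DMSO and 22.3 RPM with ATRi), RPL39 (10.6 and 13.9 RPM) and RPL13A (34.3 and 43.7 RPM), at 0.33, 0.32 and 0.29 in Ser2 and 0.02, -0.02 and 0.11 in total RNAPII. The Ser2 median lay between 0.09 and 0.18 under every setting tried. The total RNAPII median was -0.02 on the deposited scale and -0.00 over genes that share no span. With the density trend removed the medians were 0.09 in total RNAPII and 0.10 in Ser2, and with the length trend removed 0.06 and 0.09, so most of the distance between the antibodies was lost under these settings.

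Genes of the ATR pathway and of DNA replication were close to the median gene. Of the ATR pathway, 12 of 17 listed genes were measured, with medians of -0.00 and -0.03 and none called. ATR itself had 74.3 RPM (DMSO) and 82.2 RPM (ATRi) in total RNAPII and 77.2 and 84.3 RPM in Ser2, ratios of 0.17 [0.10, 0.24] and 0.06 [-0.01, 0.14]. Its effector kinase CHEK1 was at -0.03 and -0.07, and WEE1, which restrains CDK1, at -0.12 and -0.16. DNA repair genes (22 measured) had medians of 0.02 and -0.02. G1/S and replication genes (38 of 45) had medians of -0.06 and -0.02, and G2/M and mitotic genes (46 of 50) of 0.02 and 0.01. None of them was called. Over all genes 1.19% to 1.76% were called in each direction with each antibody, so lists of this size would hold few or no calls at those shares. AURKA, a mitotic kinase, came nearest among the mitotic genes, at 0.17 and 0.24. The Ser2 medians of these 4 lists, and the total RNAPII medians of the repair and mitotic lists, changed sign under at least 1 alternative setting. The G1/S and replication median in total RNAPII was -0.02 with the density trend removed.

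The machinery that transcribes and phosphorylates was likewise uncalled, beside 1.19% to 1.76% of all genes called in each direction with each antibody. POLR2A, the subunit both antibodies bind, had 92.7 RPM (DMSO) and 80.5 RPM (ATRi) in total RNAPII and 75.1 and 74.0 RPM in Ser2, ratios of -0.18 and -0.08. The 10 measured RNAPII subunits had medians of -0.06 and 0.01, and the 31 serine 2 kinases and elongation factors of -0.01 and -0.01. Both medians of each of these lists changed sign under at least 1 alternative setting. Among the remaining lists (YAP and TGF-beta targets, heat shock, unfolded protein and ATF4 response, cholesterol synthesis, glycolysis and hypoxia, NF-kB and cytokine), 1 gene was called, MVD of cholesterol synthesis, at 0.37 in Ser2 and -0.02 in total RNAPII. It is 6.25% of the 16 measured members of its list, beside 1.24% of all genes called higher in Ser2. The medians of these lists lay between -0.07 and 0.04, and between -0.12 and 0.10 over the alternative settings.

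**Figure D3:**
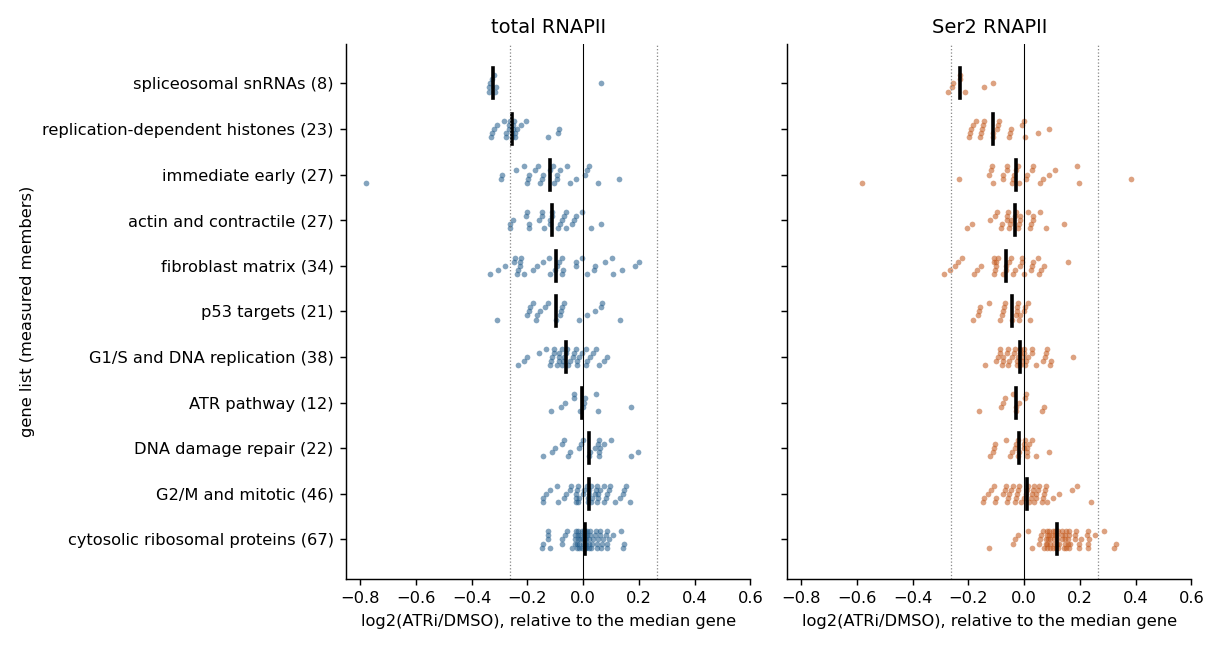
Each point is a measured gene of a fixed list and each black bar the list's median, as log2 ratio of ATRi to DMSO at 19 h relative to the median gene, for total RNAPII (left) and Ser2 (right); dotted lines mark 1.2-fold. All 23 histone genes and 7 of 8 snRNA genes lie left of 0 in total RNAPII (medians -0.25 and -0.32), and 63 of 67 ribosomal protein genes lie right of 0 in Ser2 (median 0.12).

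Gene length sorted the ratios of the 2 antibodies in opposite ways. In total RNAPII the median ratio was -0.06 for 2621 genes under 10 kb, -0.02 for 3224 genes of 10 to 30 kb, 0.02 for 3910 genes of 30 to 100 kb, 0.06 for 1893 genes of 100 to 300 kb and 0.11 for 418 genes of 300 kb and over. In Ser2 the same bins had medians of 0.03, 0.02, -0.00, -0.03 and -0.06. Longer genes thus stood higher after ATRi in total RNAPII and lower in Ser2. Read density (RPM per kb) gave the mirror image: from the sparsest to the densest quintile, the median went from 0.08 to -0.07 in total RNAPII and from -0.04 to 0.02 in Ser2. Long genes were also sparse, with a median of 0.356 RPM per kb at 300 kb and over against 2.80 RPM per kb under 10 kb. Length and density were therefore not told apart.

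**Figure D4:**
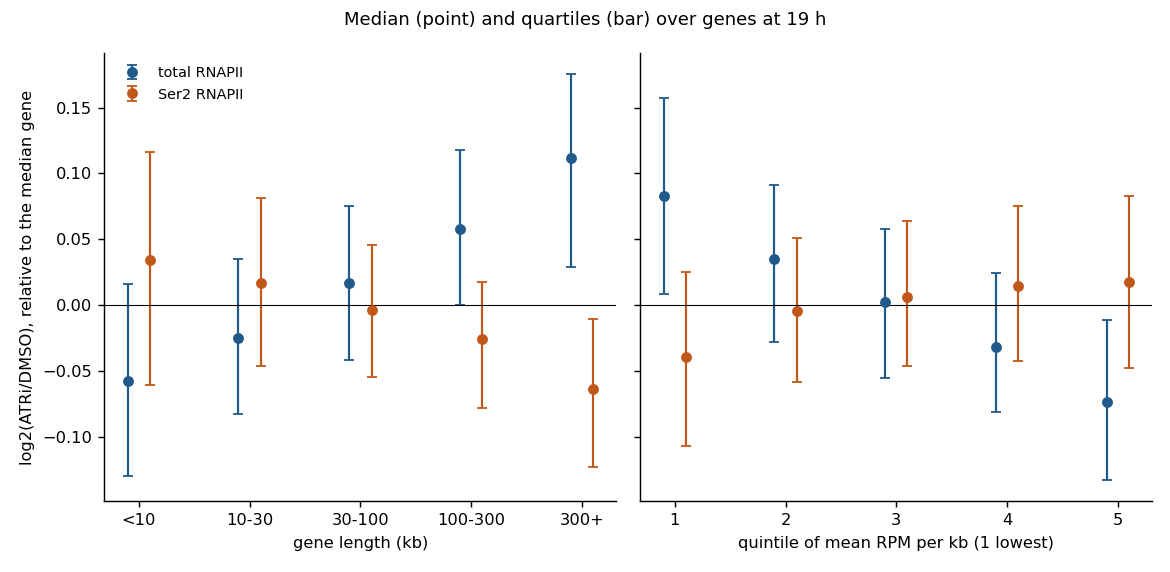
Points are medians and bars the quartiles of the log2 ratio of ATRi to DMSO at 19 h relative to the median gene, over genes grouped by length (left) and by quintile of mean RPM per kb (right), for total RNAPII and Ser2. The medians of the antibodies cross, from -0.06 and 0.03 in genes under 10 kb to 0.11 and -0.06 at 300 kb and over.

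Among the 418 genes of 300 kb and over, 347 were above 0 in total RNAPII and 88 in Ser2. Here 36 were called higher in total RNAPII and none lower, while 9 were called lower in Ser2 and none higher. These are 8.61% in total RNAPII, beside 1.76% of all genes, and 2.15% in Ser2, beside 1.3%. In the sparsest quintile of RPM per kb the same shares were 6.50% and 2.78%, so the Ser2 share of these long genes was not above that of sparse genes. PID1, an adaptor in lipid and insulin signalling, had 49.4 RPM (DMSO) and 66.1 RPM (ATRi) in total RNAPII and 79.0 and 84.2 RPM in Ser2, ratios of 0.44 and 0.03. SEMA3A, a secreted guidance factor, was at 0.37 and 0.13, and SLC4A4, a sodium bicarbonate cotransporter, at 0.40 and 0.09. On the deposited scale the median of these genes was 0.09 in total RNAPII and -0.00 in Ser2, and with the density trend removed it was 0.03 and -0.03. With the background density subtracted it was 0.054 and -0.078, the values of a gene left with no signal. No gene of this length was called in the same direction with both antibodies.

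Of the 9 genes called higher in total RNAPII and lower in Ser2, 5 were of 300 kb and over and 3 were under 10 kb. Their median density was 0.103 RPM per kb. The 1 gene called in the reverse sense was 0.283 kb long. NPAS3, a transcription factor gene of 869 kb, had 33.9 RPM (DMSO) and 41.1 RPM (ATRi) in total RNAPII and 82.9 and 69.6 RPM in Ser2, with ratios of 0.30 [0.20, 0.41] and -0.31 [-0.39, -0.23]. COL24A1, a minor fibrillar collagen, was at 0.28 and -0.29, the transmembrane gene TMEM178B at 0.28 and -0.28, the actin-binding PPP1R9A at 0.33 and -0.27 and the Wnt antagonist SFRP1 at 0.28 and -0.29. SCN3A, a neuronal sodium channel, was at 0.48 and -0.26 and just missed the call in Ser2. These 6 genes had 0.0595 to 0.177 RPM per kb, all under the background density of 0.205 to 0.233. Subtraction of that background left no signal in any of them but SCN3A, and their calls were lost. In the reverse sense the named genes were short: ZDHHC12 (-0.26 and 0.23), TRADD (-0.24 and 0.22), PBDC1 (-0.20 and 0.27), CDK2AP2 (-0.20 and 0.31), YAP1-DT (-0.22 and 0.20) and TIMM10B (-0.19 and 0.26), and none of them was called with both.

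Across all 12066 genes the antibodies agreed weakly at 19 h. Pearson's r of the 2 log2 ratios was 0.12 and Spearman's rho 0.11, and 53% of genes had the same sign. This correlation is over genes, which are not independent replicates, and the ratios share gene length and base composition but no library. It was 0.069 in the lowest quintile of mean RPM, then 0.097, 0.155 and 0.124, and 0.374 in the highest quintile. By read density it went from 0.093 in the sparsest quintile to 0.397 in the densest. With the trend in read density removed from each antibody, r was 0.256. The SD of the ratios over all genes was 0.114 in total RNAPII and 0.108 in Ser2, and the median counting error of a gene 0.053 and 0.064. In the lowest quintile, counting error (0.105 and 0.134) came close to the spread over genes (0.145 and 0.162), and in the highest quintile it was well below (0.029 and 0.033 against 0.101 and 0.072).

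**Figure D5:**
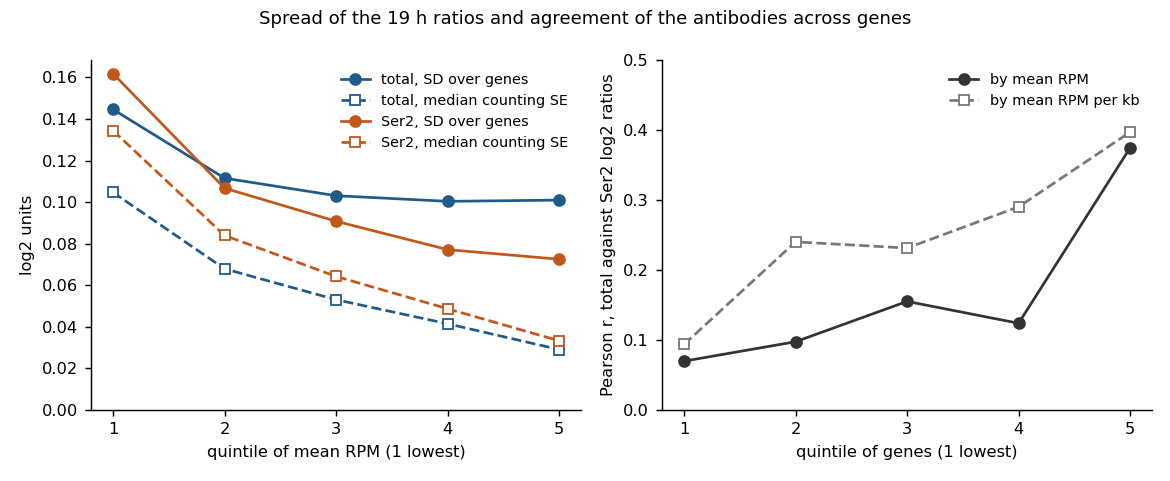
Left, the SD over genes of the 19 h log2 ratios and the median counting error per gene, by quintile of mean RPM, for total RNAPII and Ser2; right, Pearson's r between the ratios of both antibodies by quintile of mean RPM and of mean RPM per kb. Agreement is greatest in the highest quintiles (0.374 and 0.397), where counting error is smallest relative to the spread for mean RPM.

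The 19 h contrast was the narrowest of the 3 hours. The share of genes past 1.2-fold in either direction was 2.94% in total RNAPII and 2.54% in Ser2 at 19 h, while it was 12.3% (total) and 14.1% (Ser2) for 16 h, and for 22 h it reached 46.4% (total) and 16.4% (Ser2). The same 12066 genes, kept by their 19 h means, served for every hour. The 19 h libraries were also those with the largest shares of reads in genes, and total RNAPII at the other hours held fewer reads. For total RNAPII at 22 h, 42.8% (DMSO) and 57.4% (ATRi) of reads lay in nuclear genes, while the 19 h pair held 72.0% and 70.8%. Those 22 h ratios rose with log2 read density (r of 0.81), whereas for the 19 h ratios r was -0.50. The part of depth and of unequal shares in the spread at each hour was not tested. Agreement between the antibodies was 0.493 at 16 h and 0.603 at 22 h without removal of trends, and 0.427 and 0.032 with the density trend removed, against 0.256 at 19 h. The 19 h ratios of total RNAPII had an r of -0.36 with those of 16 h and -0.46 with those of 22 h, and for Ser2 these were -0.02 and 0.14. With the density trend removed they were -0.25 and -0.10 in total RNAPII and -0.10 and -0.03 in Ser2. Hours share no library. With 1 library per group, none of these differences between hours could be tested.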

How the data were processed

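RNAPII ChIP-seq signal was taken from 1 deposited table of 12425 genes in 14 libraries, of which the 4 at 19 h carry the comparison. The values are reads per 1000000 library reads (RPM) over each gene's span as deposited by the authors, not divided by length. Per the submitters' processing notes, Bowtie2 2.3.3.1 and SAMtools 1.4 were used with hg38. The counting tool, annotation, treatment of duplicates, input and spike-in are not given in the sources used here, and without a spike-in a shift over all genes cannot be seen. Within each column 100% of the values were multiples of one smallest step (within 0.01 reads), so read numbers could be recovered; 3 reads correspond to 0.0645 to 0.0994 RPM.

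From these values log2 ratios of RPM + 0.5 were computed where the mean RPM reached 1 and set relative to the median gene of each antibody (Python 3.11.15, pandas 2.3.3, scipy 1.17.1, statsmodels 0.14.6). The 14 mitochondrial genes were left out. Ensembl identifiers were named by position against RefSeq genes of GRCh38.p14 (Jaccard index of at least 0.8, or 0.5 with an end within 100 bp), which named 10736 genes (86.4%). No test was run, since each group is 1 library; nothing states whether libraries came from separate cultures. Counting intervals do not cover differences between samples.

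Genes with a symbol, at least 100 reads in each library and under 10% shared span were named as the 15 highest and 15 lowest by the smaller of both ratios, and the 6 most opposite in each sense. Up to 4 members of each list with the largest mean ratio and ATR, CHEK1, POLR2A and CDKN1A were added, and further list members are given for context. Some genes that the rule selects are not reported here. The members and lists were chosen with earlier results of these data known. Alternatives were another pseudocount, filter, scaling, fold, removal of trends by lowess, background subtraction and exclusion of shared spans. The calculation of ratios was tested on simulated reads with 1.5-fold changes placed only in genes with many reads and with counting noise only. That check does not cover calls at 1.2-fold or in genes with few reads.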

Additional observations from a re-analysis of the deposited data

Results flagged for a closer look

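Of the genes named by the rule, 5 were past 1.2-fold higher with ATRi in total RNAPII and past it lower in Ser2 at 19 h. With 1 library per group the difference was not tested. NPAS3 had log2 ratios of 0.30 in total RNAPII and -0.31 in Ser2, and COL24A1 had 0.28 and -0.29. PPP1R9A stood at 0.33 and -0.27, TMEM178B at 0.28 and -0.28, and SFRP1 at 0.28 and -0.29. All 5 had fewer reads per kb than the background density of every library. Subtraction of that background left no signal in them, so both calls of each were lost. The part of background in these values was not tested.

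The mitochondrial genes lay outside the comparison. The summed level of the 14 in total RNAPII was 117 RPM with DMSO and 133 RPM with ATRi, and 12 of them were higher with ATRi. In Ser2 it was 71.4 RPM with DMSO and 53.9 RPM with ATRi, and 0 of the 14 were higher. Mitochondrial DNA is transcribed by its own polymerase and not by RNAPII, and the difference was not tested.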

How the results depend on the processing

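The sign of r (0.12) was kept under the alternatives run, as was that of the called named genes except GPD1L in Ser2, while the counts past 1.2-fold moved with most of them. For NPAS3, COL24A1, TMEM178B, PPP1R9A and SFRP1 background subtraction left no signal. Their signs under that setting reflect only the median gene, and their calls were lost. In order, counts below are higher with both, lower with both (13 and 28 as reported), then total RNAPII higher and lower (212 and 143) and Ser2 higher and lower (150 and 157), and only those that moved by over 1.5 times are given. A pseudocount of 1 RPM gave 6 higher and 18 lower with both and 97 higher in Ser2. A minimum mean of 5 RPM, which tests fewer genes, gave 3 and 18 with both and 88 and 79 in Ser2. The deposited scale gave 16 lower with both, 226 lower in total RNAPII, and 371 and 76 in Ser2. Removal of the read density trend gave 102 higher in total RNAPII and an r of 0.256. Removal of the length trend gave 11 lower with both, 62 lower in total RNAPII, 99 higher in Ser2 and an r of 0.223. Of the 28 lower genes, 18 remained with the density trend removed and 10 with the length trend removed; the cause was not tested. Background subtraction, which leaves less signal in each gene, gave 104 and 150 with both, 530 and 413 in total RNAPII, 616 and 563 in Ser2 and an r of 0.235. Genes with no shared span, fewer in number, gave 8 and 18 with both, 135 higher in total RNAPII, and 97 and 92 in Ser2. A fold of 1.1 gave 124 and 264 with both, 1252 and 1166 in total RNAPII, and 1019 and 971 in Ser2. A fold of 1.5 gave 0 and 0, 2 and 2, and 6 and 3. Only genes with 1000 reads in each library, an alternative added after seeing the data, gave 1 and 7 with both, 58 and 29 in total RNAPII, 3 and 18 in Ser2 and an r of 0.249.

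Of 2300 recomputed ratios of named genes, 110 moved beyond their counting interval without a called ratio changing sign. Of the 726 that belong to called ratios 1 changed sign, GPD1L in Ser2 at -0.078 after background subtraction, and of the other 1574, which lie nearer 0, 33 did. Genes left without signal by that subtraction took a fixed value, so a sign kept there tells nothing about them. Of 400 list medians, 10 moved by more than the SD of their members and 31 changed sign, 11 of these on the deposited scale. Depth limits single genes in the lowest quintile of mean RPM, where the median counting error was 0.105 in total RNAPII and 0.134 in Ser2. No paired analysis was possible because each group holds 1 library and the labels carry no replicate numbers.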
